A study of Mus musculus with 4 samples.

Results

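The genes described here encode the proteasome, the complex that degrades ubiquitin-tagged proteins and supplies most of the peptides presented on MHC class I. They were taken from the table by symbol, as every gene whose symbol begins with Psm, a letter from a to g and a digit. This gave 50 genes of 24421 listed, of which 48 are known to have a role in the complex. The remaining 2 were Psme2b, a near-identical copy of Psme2, and Psmc3ip, which is named after a partner of its product and encodes a recombination factor. All 50 genes had a value above 0 in at least 1 sample, and 48 passed the filter on low values used for testing (2 or more samples with 1 FPKM or above). FPKM is the number of fragments counted on a gene, scaled to the length of the gene and to a total for the sample. Levels of different genes can thus be compared.

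RNA was sequenced from CD4+CD8+ double-positive thymocytes that also carried CD69 on their surface (CD69+DP), the cells in which positive selection has begun, sorted from mice 6 weeks old on the C57BL/6 background. Control animals were Foxa1 fl/fl Foxa2 fl/fl without Cre, and Foxa1/2cKO animals carried the same floxed alleles together with CD4Cre, a Cre transgene driven by the Cd4 promoter, so both groups shared the floxed alleles. There were 2 samples in each group, sorted independently from different mice. The comparison asked which transcripts differ when both forkhead factors are deleted from the double-positive stage onwards. The transcripts of Foxa1 and Foxa2 were listed at 0 in all 4 samples, so their levels do not check the genotype labels.

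The proteasome works as a barrel with caps. The 20S core is a stack of rings of alpha subunits, which form the gates, and beta subunits, some of which carry the protease sites. The 19S regulatory particle binds ubiquitin, unfolds the substrate with a ring of ATPases and opens the gate. Immune cells can exchange the constitutive catalytic subunits Psmb5, Psmb6 and Psmb7 for the inducible Psmb8, Psmb9 and Psmb10, which makes the immunoproteasome. The epithelium of the thymic cortex uses Psmb11 in place of Psmb5 or Psmb8, which makes the thymoproteasome, and this form shapes the peptides on which CD8 T cells are positively selected.

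The catalytic subunits are close relatives, and the coding sequence of each inducible gene is set here beside that of the constitutive gene it replaces. The lines that follow give 45 bases of the GENCODE mouse transcripts (GRCm38) for all 7, from the codon of the catalytic threonine, in capitals, which is the first residue of the mature subunit.
Psmb5: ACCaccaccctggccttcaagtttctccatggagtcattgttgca
Psmb8: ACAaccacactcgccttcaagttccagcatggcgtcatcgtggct
Psmb11: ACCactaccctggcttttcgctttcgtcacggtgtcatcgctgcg
Psmb6: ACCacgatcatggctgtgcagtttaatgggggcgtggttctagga
Psmb9: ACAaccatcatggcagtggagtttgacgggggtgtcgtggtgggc
Psmb7: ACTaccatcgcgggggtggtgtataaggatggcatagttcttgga
Psmb10: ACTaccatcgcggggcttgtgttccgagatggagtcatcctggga

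Over these bases Psmb5 was 77.8% identical to Psmb8 and 71.1% identical to Psmb11. Psmb6 was 73.3% identical to Psmb9, and Psmb7 was 71.1% identical to Psmb10. The constitutive genes were less alike among themselves, from 53.3% between Psmb5 and Psmb7 to 66.7% between Psmb6 and Psmb7. Inducible genes were not compared with the constitutive genes of other pairs. No stretch of 50 bases was shared between the partners of a pair, so their reads can be told apart. In the RefSeq annotation of the same build (GRCm38.p6) Psmb5 lies at chr14:54614120-54617995 and its neighbour Psmb11 at chr14:54625310-54629556. Psmb8 lies at chr17:34198195-34201454 and Psmb9 at chr17:34182030-34187330, in the class II region of the MHC beside the peptide transporter genes Tap1 and Tap2, whereas Psmb10 lies at chr8:105935728-105938392.

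The totals to which the values were scaled ran from 10796528 to 14968316, recovered from the steps between the deposited values. They are not plain counts of fragments. In Foxa1/2cKO 2 the recovered reads (11201146) exceeded the total (11093927), while in control 1 they were below it (14386489 against 14968316). Transcripts of double-positive cells were abundant, and all 9 genes of their marker list passed the filter. Their summed level was 2454 and 2500 FPKM in the controls, against 2529 and 3151 in Foxa1/2cKO. Only Ptcra had an unadjusted p under 0.05, and it was lower in Foxa1/2cKO, at 7.44 and 3.23 FPKM against 11.25 and 11.94 in the controls. Its difference was -1.075 on the log2 scale (limma unadjusted p = 0.0273, adjusted p = 0.863). Markers of B cells were present at a summed 75.7 and 50.3 FPKM in control 1 and control 2 and at 104 and 54.0 in Foxa1/2cKO 1 and 2, and none of the 5 had an unadjusted p under 0.05. The 8 myeloid and antigen-presenting markers summed to 317, 167, 351 and 208 FPKM in the same order. Most of each sum came from the antigen-presenting genes Cd74 (185, 99.5, 191 and 116 FPKM) and H2-Aa (103, 50.2, 134 and 78.3 FPKM). Among the other genes of that list the highest value was 15.25 FPKM, for Lyz2 in Foxa1/2cKO 1. For mature single-positive cells the 5 markers summed to 228 and 255 FPKM in the controls, against 261.2 and 174 in Foxa1/2cKO. Thymic epithelial markers summed to 12.6 to 17.2 FPKM, and 4 of the 9 (Ccl25, Ly75, Epcam and Aire) passed the filter. Both Foxa1/2cKO samples were above both controls for Ly75 and Epcam and below both for Ccl25, while Aire overlapped. None of these had an unadjusted p under 0.05. Foxn1 was at most 0.0552 FPKM. The haemoglobin genes of the erythroid list were listed at 0. Foxa1/2cKO 2 stood apart from the other 3 samples across all genes, so differences of single genes that turn on it are also given without it.

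CD69+DP cells transcribed most proteasome genes at a high level, and the summed level hardly moved between samples. The 50 genes added up to 3743 and 3810 FPKM for the controls, against 3783 and 3908 FPKM for Foxa1/2cKO. They made up between 1.01% and 1.03% of all FPKM in every sample. The tissue-restricted subunits, Psmb11 of thymic epithelium and Psma8 of testis, were the only members that did not pass the filter. Psme2b, Psmc3ip and Psmf1, at 5.47, 12.3 and 14.6 FPKM on average in the controls, were also lower than the median gene tested (14.8 FPKM).

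**Figure D1:**
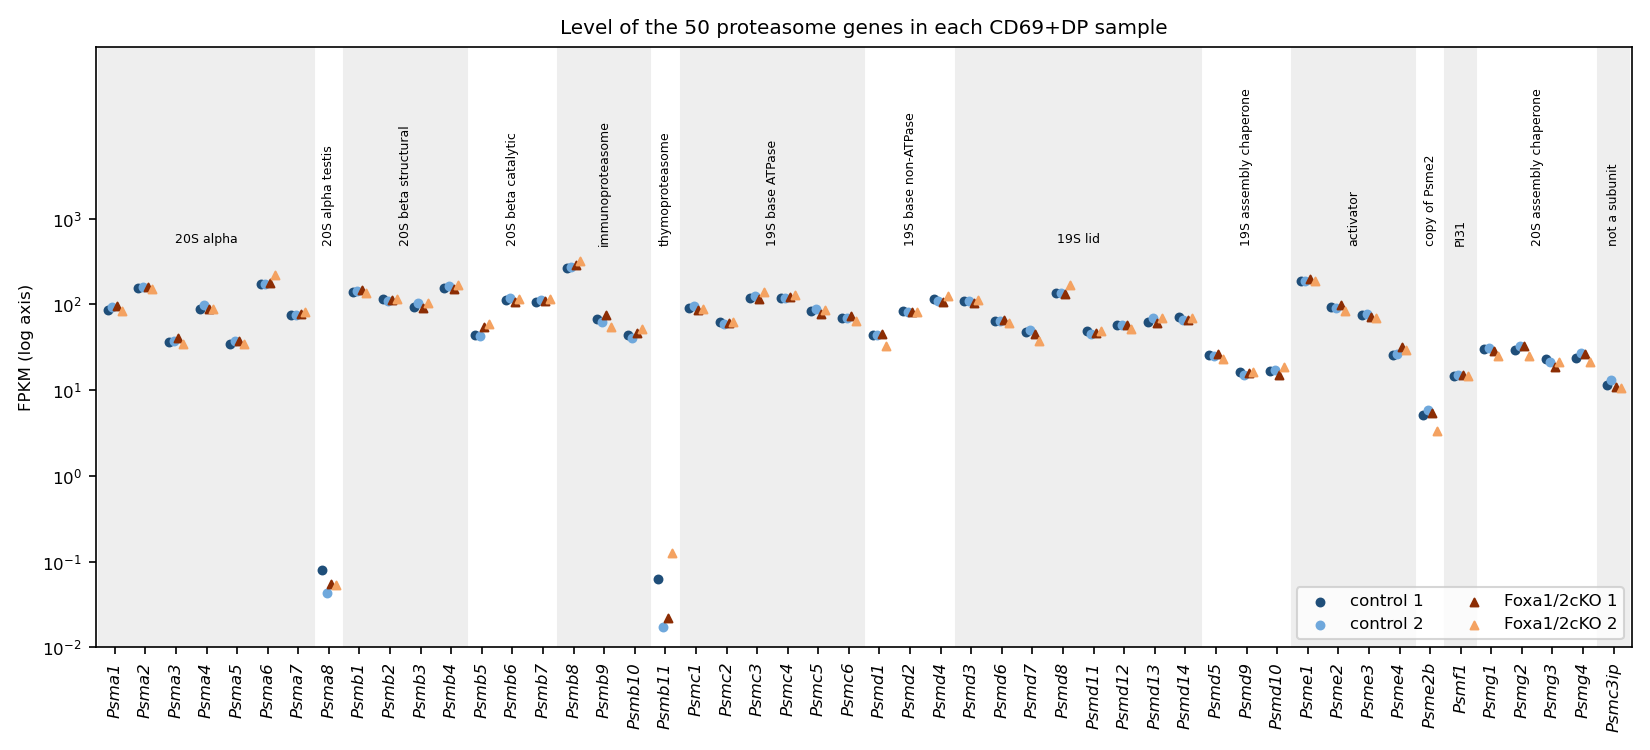
Level of each of the 50 genes, in FPKM on a log axis, with a point for each sample (circles, control; triangles, Foxa1/2cKO) and shading that separates the role groups. The 48 tested genes lie between 3.32 and 322 FPKM, while Psma8 and Psmb11 lie below 0.13 FPKM in all 4 samples.

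No proteasome gene had an adjusted p under 0.05 between the groups (limma on log2(FPKM + 1), Benjamini-Hochberg over 10776 genes), against a background of 0.00928%, that is 1 gene of 10776. At an unadjusted p under 0.05 there were 2 of 48 members, Psmb5 and Psme4, against 4.55% of all genes. Both were higher in Foxa1/2cKO, as were 2.39% of all genes at that p. With limma-voom on the recovered reads, 0 members passed the adjusted threshold and 1, Psmb5, had an unadjusted p under 0.05. The samples of the groups did not overlap for 14 of 48 members, which is 29.2%, against 36.7% of all genes. Both Foxa1/2cKO samples were above both controls for 7 members (background 18.9%) and below both for 7 (background 17.8%). The median difference over the 48 members was -0.01 on the log2 scale, against 0.01 for all genes tested, and the interval of 46 members included 0. These shares were near or below the background and are no result about the proteasome as a group. In sorted bulk samples, fewer cells of a type and less RNA per cell cannot be told apart.

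**Figure D2:**
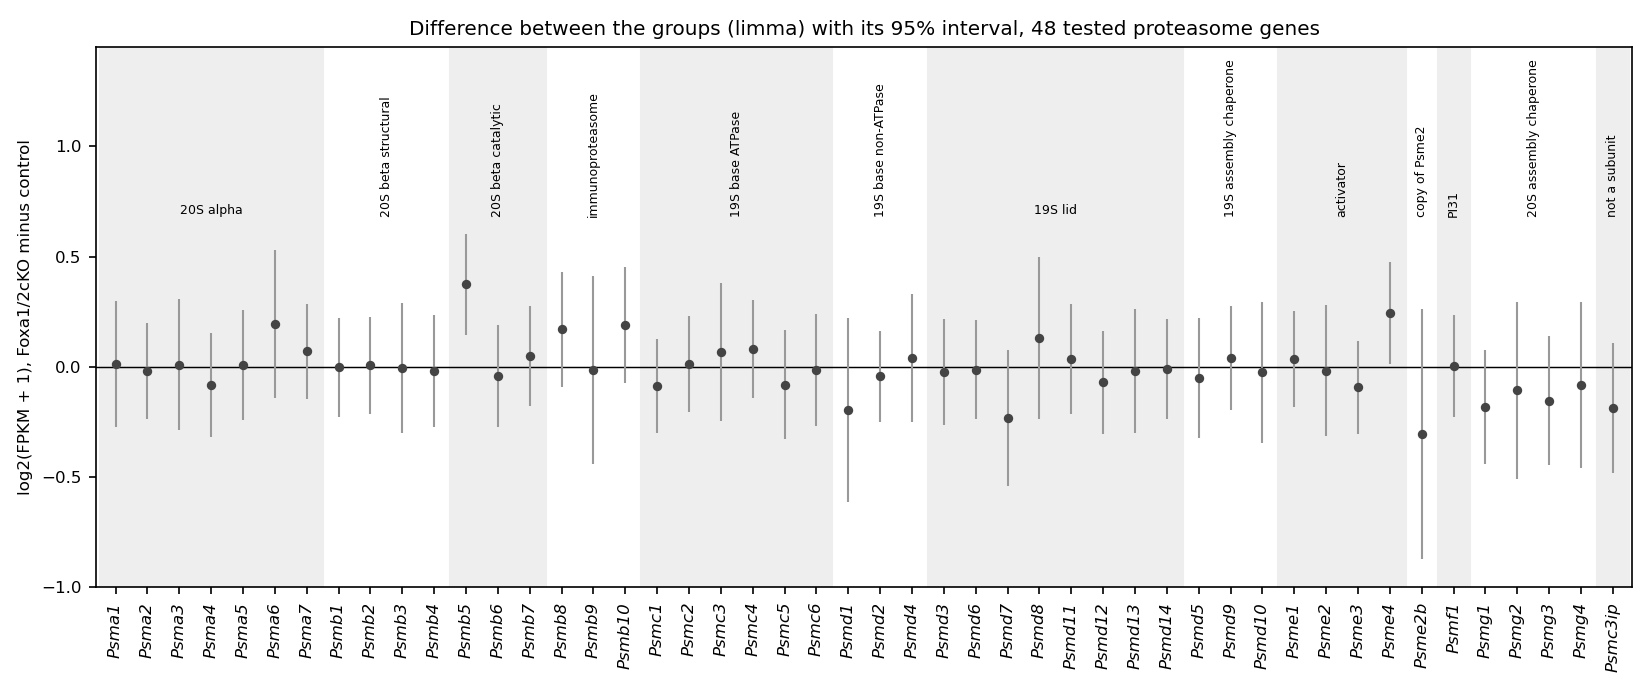
Difference between Foxa1/2cKO and control on the log2(FPKM + 1) scale for the 48 tested genes, with the 95% interval from limma (2 samples in each group). Differences range from -0.31 for Psme2b to 0.38 for Psmb5, and only the intervals of Psmb5 and Psme4 lie wholly to one side of 0.

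Among the constitutive catalytic genes, Psmb5, which encodes the subunit with chymotrypsin-like activity, was the member with the largest positive difference. It was at 44.2 and 42.7 FPKM in the controls and at 54.6 and 58.8 FPKM in Foxa1/2cKO, from at least 505 reads in every sample. Both Foxa1/2cKO samples were above both controls, and the gap between the groups was wider than the gap inside either. The mean was 43.4 ± 1.04 (SD, n = 2) in the controls and 56.7 ± 2.99 (SD, n = 2) in Foxa1/2cKO, a fold of 1.30. On the log2 scale the difference was 0.38 (95% interval 0.15 to 0.60, limma unadjusted p = 0.00891, adjusted p = 0.863), so that it did not pass the adjusted threshold. It kept its direction when any sample was left out, at 0.32 to 0.43, and the unadjusted limma p was 0.096 without control 1 and 0.133 without control 2. Without Foxa1/2cKO 1 the limma adjusted p was 0.00579, in a fit in which 25.4% of all genes passed the threshold.

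Psmb6, the caspase-like subunit, and Psmb7, the trypsin-like subunit, lay within the spread of the controls or close to it. Psmb6 was at 112 and 117 FPKM in the controls and at 107 and 116 FPKM in Foxa1/2cKO. Psmb7 was at 107 and 113 FPKM in the controls and at 110 and 117 FPKM in Foxa1/2cKO. Both genes overlapped between the groups, with intervals from -0.27 to 0.19 and from -0.18 to 0.28 on the log2 scale. Relative to Psmb6 in the same sample, Psmb5 was at 0.393 and 0.364 in the controls, against 0.508 and 0.507 in Foxa1/2cKO. Relative to Psmb7 it was at 0.414 and 0.379 against 0.494 and 0.504, so the Psmb5 difference was also present within samples.

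The Psmb5 transcript is one that copies elsewhere in the genome resemble. Of its stretches of 50 bases, 57.1% also occur in another annotated transcript, chiefly the processed pseudogenes Psmb5-ps and Gm3375, so that a part of its reads could have been placed elsewhere or dropped. The share describes the annotated transcript, and how many reads were affected in each sample was not measured. Upstream of its start, the gene carries a match to the core of the antioxidant response element, the sequence through which Nfe2l1 and Nfe2l2 induce proteasome genes. The bases from 147 to 28 before the start (chr14:54618023-54618142, minus strand, RefSeq GRCm38.p6) are printed with that match, TGACNNNGC, in capitals.
Psmb5 promoter: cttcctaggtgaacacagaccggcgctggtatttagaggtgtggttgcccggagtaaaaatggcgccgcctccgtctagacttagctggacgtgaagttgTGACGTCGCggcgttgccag

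Such a match is a description and no evidence of binding. On both strands of the 250 bases before the start it was found in 5 of the 42 members with a promoter sequence (Psmb5, Psmb6, Psmc6, Psmd9 and Psmd12), which is 11.9%, against 11.5% of 27025 genes. CCAAT was found in 15 members, or 35.7%, against 37.5% of genes. GAAANNGAA, the core bound by interferon regulatory factors, was found in 3 members (Psmb3, Psmd4 and Psmd9), or 7.14%, against 8.18%. Psmb8, Psmb9, Psmb10, Psme1 and Psme2 had no match to it in these bases. The forkhead core TGTTTAC was found in 0 of 42 members and in 3.54% of genes. Levels of the regulators overlapped between the groups, with Nfe2l1 at 27.8 and 26.2 FPKM in the controls, against 25.4 and 30.1 in Foxa1/2cKO, and Nfe2l2 at 29.1 and 26.8 against 25.4 and 32.5.

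The immunoproteasome genes were transcribed strongly and unequally in CD69+DP cells. Psmb8, the inducible counterpart of Psmb5, had the highest level of all 50 members, at 267 and 273 FPKM in the controls and 286 and 322 FPKM in Foxa1/2cKO. Psmb10, the counterpart of Psmb7, was at 43.7 and 40.8 FPKM in the controls and at 45.7 and 51.2 FPKM in Foxa1/2cKO. Both genes were higher in each Foxa1/2cKO sample than in each control, by small amounts. The difference was 0.17 for Psmb8 (95% interval -0.09 to 0.43, limma unadjusted p = 0.15, adjusted p = 0.863) and 0.19 for Psmb10 (95% interval -0.07 to 0.45, limma unadjusted p = 0.119, adjusted p = 0.863) on the log2 scale. Without Foxa1/2cKO 2 these differences were 0.09 and 0.11, and without Foxa1/2cKO 1 they were 0.26 and 0.27.

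Psmb9, the counterpart of Psmb6, behaved differently between the Foxa1/2cKO samples. It was at 66.6 and 62.8 FPKM in the controls and at 74.5 and 55.0 FPKM in Foxa1/2cKO 1 and 2, so that the Foxa1/2cKO samples lay on either side of the controls. The means of the groups were 64.7 ± 2.67 and 64.7 ± 13.7 FPKM (SD, n = 2 each), with a difference of -0.01 on the log2 scale (95% interval -0.44 to 0.41). Leaving out Foxa1/2cKO 2 turned the difference to 0.20 and leaving out Foxa1/2cKO 1 turned it to -0.23. Of the Psmb9 transcript, 12.5% of 50-base stretches are shared with Tap1, its overlapping neighbour. The summed B cell markers had the same order of samples inside each group as Psmb9, and their part in it was not tested.

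Within each pair, the balance of inducible and constitutive gene differed far more between the pairs than between the groups. Psmb8 stood at 6.04 and 6.38 times Psmb5 in the controls, against 5.25 and 5.48 times in Foxa1/2cKO. Psmb9 stood at 0.593 and 0.535 times Psmb6 in the controls, against 0.694 and 0.474 times in Foxa1/2cKO. Psmb10 stood at 0.410 and 0.362 times Psmb7 in the controls, against 0.414 and 0.439 times in Foxa1/2cKO. The inducible gene thus exceeded its constitutive partner at the Psmb5 position alone, in all 4 samples. As a share of the catalytic subunits Psmb5 to Psmb11, the immunoproteasome genes made up 58.9% and 58.0% in the controls, against 59.9% and 59.5% in Foxa1/2cKO. The share was 1.26 percentage points higher in Foxa1/2cKO (exact permutation test, two-sided p = 0.33, which is the smallest that 2 against 2 samples can give, adjusted p = 0.556 over 5 ratios). It was 1.72 points without control 1 and 0.813 points without control 2.

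The share of Psmb8 among Psmb5, Psmb8 and Psmb11 moved the other way, at 85.8% and 86.4% in the controls, against 84.0% and 84.5% in Foxa1/2cKO (exact permutation p = 0.33, adjusted p = 0.556). The Psmb9 share of Psmb6 and Psmb9 was 37.2% and 34.9% in the controls, against 41.0% and 32.2% in Foxa1/2cKO (exact permutation p = 1, adjusted p = 1). The Psmb10 share of Psmb7 and Psmb10 was 29.1% and 26.6% against 29.3% and 30.5% (exact permutation p = 0.33, adjusted p = 0.556). No design of this size can reach 0.05 in such a test.

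**Figure D3:**
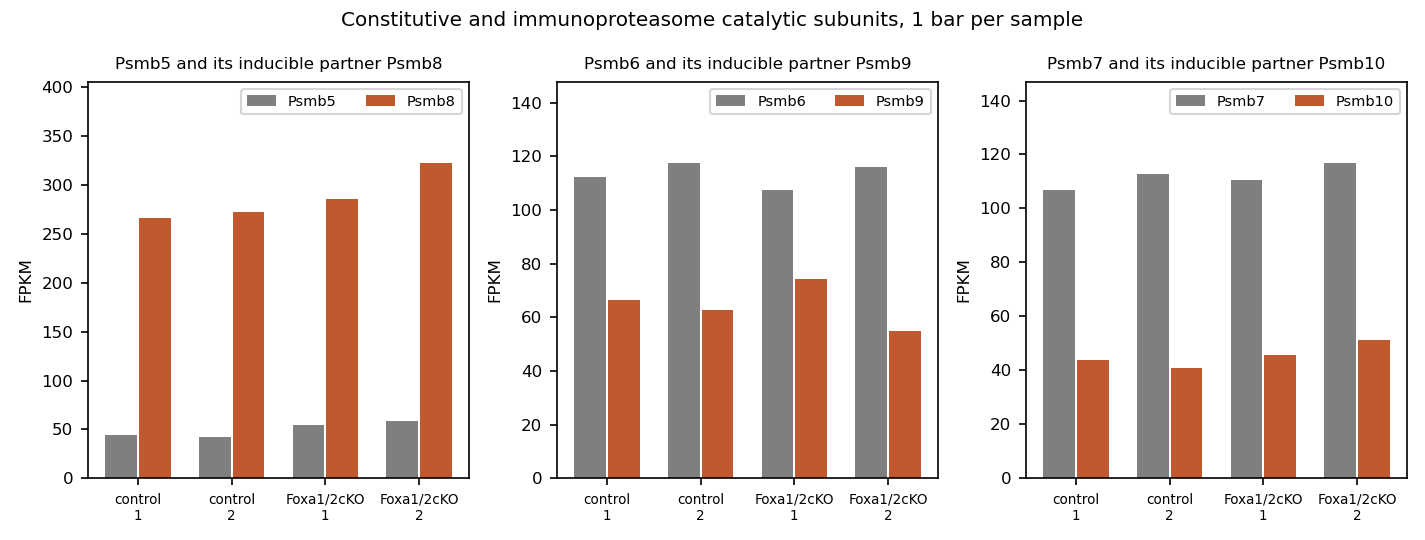
FPKM of each constitutive catalytic gene (grey) beside its inducible partner (orange), with a bar for each of the 4 samples and an axis for each pair. Psmb8 is above Psmb5 in all 4 samples, at 5.25 to 6.38 times its level, while Psmb9 and Psmb10 are below their partners in all 4.

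In the order of levels in the controls, Psmb8 came first, followed by Psmb6 and Psmb7, whose values overlapped, then Psmb9, then Psmb5 and Psmb10, whose values overlapped as well. In Foxa1/2cKO the lowest Psmb5 value (54.6 FPKM) was above the highest Psmb10 value (51.2 FPKM), and in Foxa1/2cKO 2 Psmb5 (58.8 FPKM) was above Psmb9 (55.0 FPKM).

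Psmb11, the thymoproteasome subunit, was at the edge of detection. It was at 0.0629 and 0.0173 FPKM in the controls and at 0.0218 and 0.127 FPKM in Foxa1/2cKO, which corresponds to 4, 1, 1 and 6 reads. The exact Poisson intervals of these reads, which cover counting error only, ran from 1.09 to 10.2 for control 1, from 0.0253 to 5.57 for control 2 and for Foxa1/2cKO 1, and from 2.20 to 13.1 for Foxa1/2cKO 2. All 4 intervals overlapped, so no difference was detectable at this depth. Foxn1, which defines thymic epithelium, was at 0.0205 and 0.0226 FPKM in the controls and at 0 and 0.0552 FPKM in Foxa1/2cKO. These values come from 1, 1, 0 and 2 reads. Apart from Psmb11 and Foxn1, no marker of the thymic epithelial list was highest in Foxa1/2cKO 2. Prss16 (10, 5, 6 and 4 reads) and Krt8 (8, 6, 4 and 2 reads) were lowest in that sample. Krt5 (4, 0, 2 and 1 reads) was highest in control 1. The part of epithelial cells in the Psmb11 reads was not tested. Psma8, the alpha subunit of spermatogenic cells, was at 0.0789 and 0.0435 FPKM in the controls and at 0.0547 and 0.0532 FPKM in Foxa1/2cKO, from 1 or 2 reads in each sample. Of 3 reads, the level would be 0.118 to 0.164 FPKM for this gene, so all its values lay under that floor.

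The alpha ring, which forms the gate of the core, was represented by 7 somatic genes from 33.96 to 220 FPKM. In the controls the mean levels spanned 4.83-fold, from Psma5 at 35.7 FPKM to Psma6 at 172 FPKM, although the assembled ring holds these subunits in equal number. No gene of the 7 reached an unadjusted p of 0.05. The difference was positive for 5 and negative for 2, with a median of 0.01 on the log2 scale. Psma6 was at 173 and 172 FPKM in the controls and at 178 and 220 FPKM in Foxa1/2cKO, with Foxa1/2cKO 2 alone far from the rest. Its difference was 0.20 with all samples and 0.04 without Foxa1/2cKO 2.

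The other alpha genes stayed closer together. Psma7 was at 75.3 and 75.1 FPKM in the controls and at 76.9 and 81.3 FPKM in Foxa1/2cKO, which did not overlap but differed by 0.07 on the log2 scale (95% interval -0.14 to 0.29). Psma4 was at 88.9 and 97.6 FPKM in the controls and at 88.6 and 86.9 FPKM in Foxa1/2cKO, below both controls by a margin smaller than the gap between the controls. For Psma5, 55.4% of the 50-base stretches are shared with other annotated transcripts, mostly pseudogenes, and for Psma4 and Psma3 it was 31.5% and 22.0%, so the levels of these genes are less certain.

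The beta subunits without an active site, Psmb1 to Psmb4, had close means in both groups. They lay between 90.3 and 166 FPKM, and their mean levels in the controls spanned 1.64-fold. All 4 overlapped between the groups, and their differences lay from -0.02 to 0.01 on the log2 scale. Psmb1 was at 139 and 141 FPKM in the controls and at 145 and 135 FPKM in Foxa1/2cKO. The widest interval of the group ran from -0.30 to 0.29, for Psmb3, of whose 50-base stretches 55.8% are shared with pseudogenes.

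The assembly chaperones of the core, Psmg1 to Psmg4, which pair the alpha subunits during ring formation, were transcribed at a lower level, between 18.6 and 32.3 FPKM. All 4 had a negative difference, from -0.18 to -0.08 on the log2 scale, and none had an unadjusted p under 0.05. Without Foxa1/2cKO 2 the difference was 0.08 for Psmg2 and 0.07 for Psmg4, so that the shared direction was lost. Psmg1 was at 30.0 and 30.7 FPKM in the controls and at 28.3 and 25.1 FPKM in Foxa1/2cKO, without overlap (limma unadjusted p = 0.127, adjusted p = 0.863). Psmg2, its partner in a heterodimer, was at 29.0 and 32.2 FPKM in the controls and at 32.3 and 24.8 FPKM in Foxa1/2cKO. Psmg3 was at 23.3 and 21.4 FPKM in the controls and at 18.5 and 21.5 FPKM in Foxa1/2cKO, and Psmg4 at 23.4 and 27.1 against 26.4 and 21.3. Apart from Psmg1, these genes overlapped between the groups, and Foxa1/2cKO 2 was the lowest sample for Psmg1, Psmg2 and Psmg4 but not for Psmg3.

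The ATPases Psmc1 to Psmc6, which unfold the substrate, spanned 59.1 to 140 FPKM. Differences ran from -0.09 to 0.08 on the log2 scale, 3 upwards and 3 downwards, with a median of -0.000378. Psmc4 was at 118 and 117 FPKM in the controls and at 120 and 129 FPKM in Foxa1/2cKO, above both controls by 0.08 on the log2 scale (95% interval -0.14 to 0.30). Psmc1 was at 90.7 and 94.6 FPKM in the controls and at 85.9 and 88.3 FPKM in Foxa1/2cKO, below both by 0.09. Both margins were small beside the intervals. Psmc3ip, which the rule takes in by name alone, was at 11.3 and 13.2 FPKM in the controls and at 10.8 and 10.5 FPKM in Foxa1/2cKO, and 27.1% of its 50-base stretches are shared with the overlapping gene Mlx.

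The other base subunits are the scaffolds Psmd1 and Psmd2 and the ubiquitin receptor Psmd4. Psmd1 was at 44.2 and 43.8 FPKM in the controls, at 44.5 FPKM in Foxa1/2cKO 1 and at 32.9 FPKM in Foxa1/2cKO 2. Its difference of -0.20 on the log2 scale therefore rested on Foxa1/2cKO 2, and without it the difference was 0.02. Psmd2 was at 84.2 and 82.1 FPKM in the controls and at 80.4 and 80.8 FPKM in Foxa1/2cKO, a difference of -0.04 (95% interval -0.25 to 0.16). Psmd4 overlapped between the groups, from 106 to 125 FPKM over the 4 samples.

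The lid, which holds the deubiquitinase Psmd14, comprised 8 genes between 37.6 and 168 FPKM. None had an unadjusted p under 0.05, and 2 had a positive and 6 a negative difference, with a median of -0.02 on the log2 scale. Psmd14 itself was at 70.1 and 66.3 FPKM in the controls and at 65.8 and 69.5 FPKM in Foxa1/2cKO. Psmd7, which pairs with Psmd14 in the lid, was at 46.9 and 50.1 FPKM in the controls and at 44.98 and 37.6 FPKM in Foxa1/2cKO. It was the only lid gene without overlap, by -0.23 on the log2 scale (95% interval -0.54 to 0.08) and by -0.11 without Foxa1/2cKO 2. Psmd8 was at 134 and 136 FPKM in the controls and at 131 and 168 FPKM in Foxa1/2cKO, again with Foxa1/2cKO 2 apart, and its difference of 0.13 was -0.05 without that sample. The 19S chaperones Psmd5, Psmd9 and Psmd10, which hold the base ATPases until assembly, were lower, at 15.1 to 26.1 FPKM, and all 3 overlapped between the groups.

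The balance of cap and core was similar in the groups. The mean level of the 17 base and lid genes was 80.3% and 78.0% of that of the 14 constitutive core genes in the controls, against 76.3% and 78.1% in Foxa1/2cKO (exact permutation p = 0.667, adjusted p = 0.833).

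The alternative activators replace the 19S cap. Psme1 and Psme2 encode the interferon-inducible PA28 ring, Psme3 the nuclear form and Psme4 the large activator PA200. Psme4 was the second member with an unadjusted p under 0.05. It was at 25.6 and 26.0 FPKM in the controls and at 31.9 and 29.5 FPKM in Foxa1/2cKO, and both Foxa1/2cKO samples were above both controls. The difference was 0.24 on the log2 scale (95% interval 0.01 to 0.48, limma unadjusted p = 0.0428, adjusted p = 0.863), a fold of 1.19. Psme4 has the longest transcript among the members, and after correction for the trend of the differences with gene length it was 0.22 with a limma unadjusted p of 0.0661. Leaving out a sample kept the direction, at 0.19 to 0.30, but the unadjusted limma p was 0.285 without control 1 and 0.248 without control 2. It was 0.0727 with limma-voom and at most 0.175 in the other alternatives that kept all samples.

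Psme1 was the second most abundant member in the controls, at 189 and 188 FPKM in the controls and at 198 and 188 FPKM in Foxa1/2cKO. Psme2 was at 91.8 and 91.3 FPKM in the controls and at 98.7 and 82.8 FPKM in Foxa1/2cKO. They lie as neighbours at chr14:55578494-55581527 and chr14:55587440-55591101, and the ratio of Psme1 to Psme2 was 2.06 and 2.06 in the controls, against 2.01 and 2.27 in Foxa1/2cKO. Psme3 was at 74.6 and 76.4 FPKM in the controls and at 71.7 and 69.7 FPKM in Foxa1/2cKO, without overlap but with an interval from -0.30 to 0.12. The proteasome inhibitor PI31, encoded by Psmf1, was level, at 14.4 and 14.9 FPKM against 14.8 and 14.6.

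The value of Psme2 cannot be separated fully from that of Psme2b, which lies at chr11:48945345-48946410. Over 720 coding bases 5 differed, so that the genes were 99.3% identical. The stretch shown here (coding bases 484 to 543) holds 3 of the 5, in capitals.
Psme2: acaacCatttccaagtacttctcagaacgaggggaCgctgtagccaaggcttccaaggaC
Psme2b: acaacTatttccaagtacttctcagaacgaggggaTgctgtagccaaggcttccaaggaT

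Psme2b was at 5.17 and 5.77 FPKM in the controls and at 5.34 and 3.32 FPKM in Foxa1/2cKO, from 39 to 83 reads. It was at 0.0564 and 0.0632 times Psme2 in the controls, against 0.0541 and 0.0401 times in Foxa1/2cKO. Of its 50-base stretches 69.3% occur in another annotated transcript, and 59.3% of those of Psme2 do, so that a read placed on one could come from the other. Its difference of -0.31 on the log2 scale, the lowest of all members, had an interval from -0.87 to 0.26 and was -0.03 without Foxa1/2cKO 2.

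The Foxa1/2cKO samples lay farther from each other than the controls did. The median absolute difference between the samples of a group on the log2 scale was 0.06 for the controls and 0.14 for Foxa1/2cKO over the 48 members, against 0.08 and 0.20 over all genes tested. The Foxa1/2cKO samples were farther apart than the controls for 39 members, or 81.2%, against 76.5% of all genes. A difference over 0.25 on the log2 scale was seen between the Foxa1/2cKO samples for 11 members (22.9%, against 40.6% of all genes) and between the controls for 0 (against 9.39%). Psmd8, Psma6, Psmc3 and Psmd10 were higher in Foxa1/2cKO 2 than in Foxa1/2cKO 1 by this margin, and Psme2b, Psmb9, Psmd1, Psmg2, Psmg4, Psmd7 and Psme2 were lower.

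**Figure D4:**
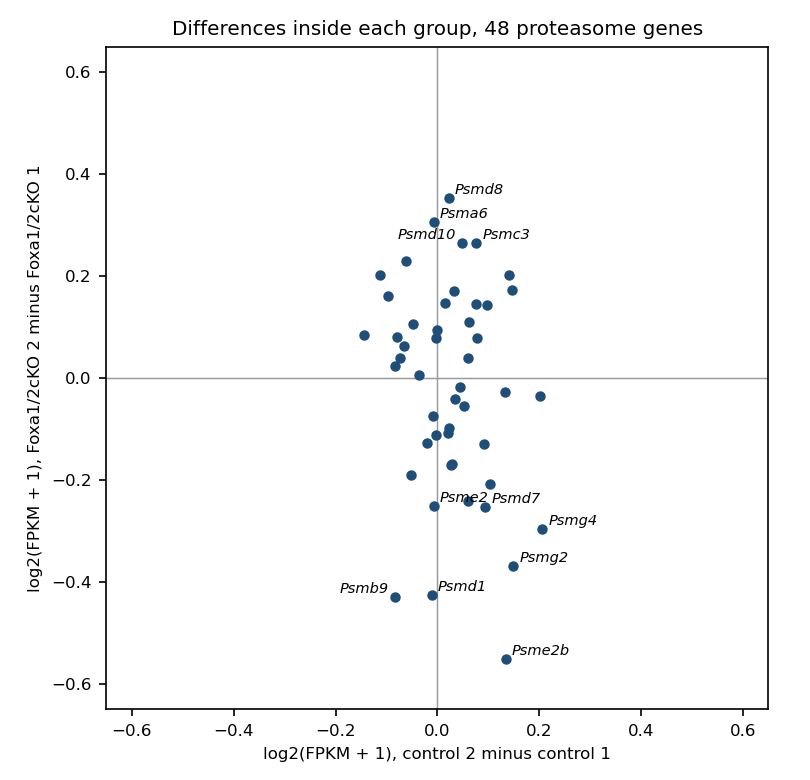
Each point is one of the 48 tested genes, placed by the log2(FPKM + 1) difference between the controls (horizontal) and between the Foxa1/2cKO samples (vertical), on equal axes. The points spread to 0.21 along the horizontal and to 0.55 along the vertical axis, and the 11 genes past 0.25 on the vertical axis are named.

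The count of members called also changed with 1 sample, and the cause was not tested. Without Foxa1/2cKO 1, 12 of 48 members (25%) had a limma adjusted p under 0.05, against 25.4% of all genes tested in that fit. They were Psma6, Psmb5, Psmb8, Psmb10, Psmc3 and Psmd8, with a positive difference, and Psmb9, Psmd1, Psmd7, Psme2b, Psmg1 and Psmg2, with a negative one. In the same fit 16 members had an unadjusted p under 0.05, against 40.1% of all genes. Without Foxa1/2cKO 2, no member passed the adjusted threshold (background 0.224%) and 5 had an unadjusted p under 0.05, against 17.7% of all genes. With the lone Foxa1/2cKO sample, the fit takes its spread from the controls.

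Proteasome partners whose symbols do not begin with Psm were read from a list of 20 genes. None had an unadjusted p under 0.05, 13 had a positive and 7 a negative difference, and the median was 0.03 on the log2 scale. Shfm1, which encodes the smallest 19S subunit, was at 187 and 179 FPKM in the controls and at 182 and 188 FPKM in Foxa1/2cKO. Pomp, the maturation factor of the core, was at 156 and 155 FPKM in the controls and at 153 and 185 FPKM in Foxa1/2cKO, with Foxa1/2cKO 2 apart as for Psma6 and Psmd8. Uchl5, a deubiquitinase of the cap, was at 25.9 and 28.9 FPKM in the controls and at 28.0 and 17.7 FPKM in Foxa1/2cKO, low in Foxa1/2cKO 2 as Psmd1 was. The ubiquitin receptor Adrm1 overlapped between the groups, at 34.1 to 42.8 FPKM, and the unfoldase Vcp lay between 71.0 and 74.1 FPKM in all 4 samples.

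Genes that load the peptides made by the proteasome, and genes that induce the immunoproteasome, formed a list of 11. Only Ifngr1, which encodes a chain of the interferon gamma receptor, had an unadjusted p under 0.05, at 142 and 139 FPKM in the controls and 170 in both Foxa1/2cKO samples (0.27 on the log2 scale, 95% interval 0.06 to 0.48, limma unadjusted p = 0.021, adjusted p = 0.863). The other receptor chain, Ifngr2, was at 30.4 and 32.5 FPKM in the controls and at 28.8 and 28.2 FPKM in Foxa1/2cKO. Irf1, a transcription factor that induces the immunoproteasome genes, was at 30.1 and 31.4 FPKM in the controls and at 29.5 and 26.9 FPKM in Foxa1/2cKO, likewise below both controls. The class I gene H2-D1 overlapped between the groups, at 52.8 to 69.4 FPKM. The transporters Tap1 and Tap2 overlapped between the groups, at 74.1 to 89.9 FPKM and 131 to 156 FPKM.

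In 5 of these 11 genes Foxa1/2cKO 1 was the highest and Foxa1/2cKO 2 the lowest of the 4 samples. They were B2m, Erap1, H2-K1, Nlrc5 and Tapbp. Nlrc5, the transactivator of MHC class I, was at 20.5 and 18.7 FPKM in the controls and at 25.3 and 12.97 FPKM in Foxa1/2cKO. Among the tested proteasome genes 11 of 48 (22.9%) had that order of samples, against 12.99% of all genes. They were Psma1, Psma3, Psma5, Psmb1, Psmb9, Psmc6, Psmd1, Psmd5, Psmd6, Psme2 and Psmg2. The reverse order, Foxa1/2cKO 2 highest and Foxa1/2cKO 1 lowest, was seen in 7 members (14.6%, against 18.4% of all genes). Of the 11 listed genes 1, Tap2, had the reverse order, and Psmb8 and Psmb10 were also highest in Foxa1/2cKO 2. The pattern was chosen after these values were seen and is a description of 2 samples of the same group.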

How the data were processed

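RNA of 4 samples of sorted CD69+DP thymocytes was sequenced on an Illumina NextSeq by the authors, aligned to mm10 (TopHat, Picard and DESeq2 are named in the submitters' processing notes, without versions) and deposited as 1 table of FPKM per gene and sample. The step from read counts to FPKM is not given in the sources used here. FPKM steps gave whole reads for all 16069 genes above 0 (tolerance 0.005 reads). These reads are the smallest whole numbers the values allow, so that genes whose reads share a divisor have more.

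The log2(FPKM + 1) values were fitted with limma 3.58.1 (R 4.3.3, mean-variance trend) over 10776 genes with at least 1 FPKM in at least 2 samples, with Benjamini-Hochberg adjustment and a threshold of 0.05. A fold change on this scale understates the change of low genes. Count tests on recovered reads were an alternative only. Ratios within a sample were compared with an exact permutation test. The fit was tested on simulated data with the same spread in both groups and with changes larger than that of any member. The real Foxa1/2cKO samples lay farther apart than the controls, so the simulation does not cover the case of these data. p-values measure the spread between 2 samples in each group, each sorted separately from different mice. Alternatives were another pseudocount, other filters, 2 scalings, a replicate block, a length correction, limma-voom and leaving out each sample. The genes are those the symbol rule takes in, and any member or list gene could be named. Members and lists were chosen with earlier results of these data known. Sequences came from GENCODE M21 and RefSeq promoters (42 of 50 members matched), and annotations from RefSeq. Of 24421 symbols, 27 were written as dates and could not be matched to a gene. A gene was left out of the peptide-loading list and is not reported here.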

Additional observations from a re-analysis of the deposited data

How the results depend on the processing

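Over the alternatives tried, 19 of 48 members kept the sign of their difference in all 13 and 29 changed it in at least 1. The number of members with an adjusted p under 0.05 was 0 in all 9 alternatives that kept the 4 samples. The number of members with an unadjusted p under 0.05 was 2 and became 1 under upper-quartile scaling, scaling to all recovered reads, the replicate block, the length correction with and without the block, and limma-voom. Leaving out a sample gave 0 to 16 such members (16 of 48 where 40.1% of all genes were past that p) and 0 to 12 past the adjusted threshold. Over all genes, the adjusted count of 1 was 0 with a pseudocount of 0.1, without the filter, with at least 10 reads, under either scaling and with limma-voom, and ran from 0 to 2695 when a sample was left out. The median difference of the members, -0.01, was -0.03 under upper-quartile scaling, -0.05 under scaling to all reads and limma-voom, and 0.03 with the length correction, with or without the block. The median of all genes tested, 0.005, moved in the same direction each time. It was -0.013 under upper-quartile scaling, -0.027 under scaling to all reads, -0.031 with limma-voom and 0.021 with the length correction. The cause was not tested. The replicate numbers are not shown to pair the samples, since the deviations of same-numbered samples had a correlation of -0.0587 across genes. With the replicate block 0 members passed the adjusted threshold and 1 the unadjusted one. With 2 samples in each group, only 2 residual degrees of freedom, with 2.695 prior degrees of freedom from limma, stand behind each interval, and the median 95% interval of a member reached 0.25 to either side on the log2 scale.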
